A study of Mus musculus with 21 samples.

Results

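The genes described here are 33 genes of glycolysis and of the transcriptional response to low oxygen, chosen by symbol from a list of the pathway, with earlier results of these data known. The files list them in capitals (BNIP3, EGLN3, PGAM1, ADM and so on). All 33 were listed in each of the 3 tables of counts, among 24540 gene names in all, and all 33 passed the filter on low counts in every comparison. RNA-seq was done on 21 cultures of immortalized mouse fibroblasts in 7 groups of 3. The groups were compared to ask what loss of Prrx1, a homeobox transcription factor of mesenchymal cells, does to gene expression in fibroblasts of 3 origins.

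Mouse embryonic fibroblasts (MEF) came from embryos of days 10 to 13 on a C57BL/6 background and formed 3 groups. These were WT (WT_MEF), cells of the Prrx1 mutant strain 129S-Prrx1tm1Jfm/Mmmh (KI_MEF), and cells carrying a CRISPR/Cas9 guide against Prrx1 (SG_MEF). Skin fibroblasts from dorsal wounds of C57BL/6 mice at day 10 were WT (WT_Wound) or carried the guide (SG_Wound). Cancer-associated fibroblasts from breast tumours of MMTV-PyMT mice on the FVB/NJ strain were likewise WT (WT_MMTV) or guided (SG_MMTV). All groups had been immortalized with HPV E6 and E7 and were harvested at high confluence, and no low-oxygen treatment is named. Nothing in the labels says that the cultures of a group came from separate animals or lines, so p-values measure the spread between these cultures, which may be technical.

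Glycolysis turns glucose into pyruvate, which is either reduced to lactate or passed to the mitochondrion for the TCA cycle. When oxygen falls, prolyl hydroxylases of the EGLN family no longer mark HIF-1α for destruction through VHL, and the stabilized factor raises transcription of most glycolytic enzymes, of glucose and lactate transporters and of genes that restrain mitochondrial use of pyruvate. Fibroblasts of wounds and tumours are known for high glucose use and lactate release.

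HIF binds a short core, ACGTG or GCGTG. Both were searched on both strands in RefSeq promoter windows of 300 bases (250 before to 50 after the start, GRCm38.p6). A window was given for 32 of the 33 genes, Ndrg1 being the exception. At least 1 match was found for 30 of these 32 genes (93.8%), with a median of 2 in the window of a gene with the most, against 12628 of 27025 genes (46.7%) over all genes with a window. Gpi1 and Tpi1 had 0 matches. A gene with more windows has more room for a match, and per window the shares were 79.6% of 49 and 43.8% of 32851. The genes were chosen for glycolysis and the response to low oxygen, so a higher share may come from the choice itself. It is no test of HIF control. ACGTG preceded by C is also the E-box CACGTG, which reads the same on both strands and counts there as 2 matches. The windows of Bnip3 and Egln3, which were higher in every comparison with WT, and of Adm and Pfkfb3, whose changes ran in opposite directions between fibroblast types, are printed 5′ to 3′ in the direction of the gene, with the matches in capitals. Bnip3 lies at chr7:138909457-138909756 on the minus strand and had 5 matches, Egln3 at chr12:54203825-54204124 on the minus strand and had 1, Adm at chr7:110627407-110627706 on the plus strand and had 2. Pfkfb3 had a window with 1 match and the one printed here with 4, at chr2:11502041-11502340 on the minus strand.
Bnip3: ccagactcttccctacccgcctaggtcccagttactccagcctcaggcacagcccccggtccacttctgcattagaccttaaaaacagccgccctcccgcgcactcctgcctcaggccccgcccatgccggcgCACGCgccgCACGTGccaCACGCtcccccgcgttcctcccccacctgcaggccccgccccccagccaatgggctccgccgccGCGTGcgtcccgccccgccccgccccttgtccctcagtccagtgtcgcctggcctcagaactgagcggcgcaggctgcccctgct
Egln3: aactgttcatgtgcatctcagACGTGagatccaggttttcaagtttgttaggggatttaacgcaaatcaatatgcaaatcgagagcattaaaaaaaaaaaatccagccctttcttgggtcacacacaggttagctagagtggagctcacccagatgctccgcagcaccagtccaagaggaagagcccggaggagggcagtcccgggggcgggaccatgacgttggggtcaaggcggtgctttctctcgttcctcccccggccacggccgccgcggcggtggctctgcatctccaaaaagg
Adm: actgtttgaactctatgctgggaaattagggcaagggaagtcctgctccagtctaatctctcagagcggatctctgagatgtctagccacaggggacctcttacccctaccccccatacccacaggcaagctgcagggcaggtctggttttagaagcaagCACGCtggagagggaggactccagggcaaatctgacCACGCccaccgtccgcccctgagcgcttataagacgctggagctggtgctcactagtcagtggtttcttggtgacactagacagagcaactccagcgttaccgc
Pfkfb3: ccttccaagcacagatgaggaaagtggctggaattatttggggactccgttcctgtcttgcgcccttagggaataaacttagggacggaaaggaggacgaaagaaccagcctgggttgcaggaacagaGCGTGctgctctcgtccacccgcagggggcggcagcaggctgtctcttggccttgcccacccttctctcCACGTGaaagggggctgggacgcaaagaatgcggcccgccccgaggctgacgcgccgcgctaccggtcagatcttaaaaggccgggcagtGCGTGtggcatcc
A match describes letters in the window, and binding was not analysed here.

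Total counts per culture ranged from 69588655 to 134790440, deepest in MMTV-CAF. Prrx1 itself was lower in each loss group. In CPM, counts per 1000000 reads scaled by TMM over all 21 cultures, it was 192, 166 and 184 in WT_MEF, 26.1, 20.7 and 19.9 in KI_MEF, and 126, 94.9 and 140.5 in SG_MEF. It was 143 to 152 CPM in WT_Wound against 64.2 to 65.3 in SG_Wound, and 627 to 636 in WT_MMTV against 301 to 309 in SG_MMTV. Col1a1, Col1a2 and the other fibroblast markers summed to 12205 to 12475 CPM in WT_MEF, 5595 to 6849 in KI_MEF and 9589 to 11274 in SG_MEF. The same sum was 8232 to 8380 CPM in WT_Wound against 3239 to 3255 in SG_Wound, and 31717 to 32315 in WT_MMTV against 15763 to 15965 in SG_MMTV, with 7 of the 10 markers above 1 CPM in KI_MEF and SG_MMTV and 8 or 9 in the other groups. Single markers did not all follow these sums. In SG_MMTV Dcn rose from 32.4 to 588 CPM and Pdgfra from 939 to 1835, while the other markers had lower means than in WT_MMTV. Vim was at 6504 CPM in SG_MEF against 5075 in WT_MEF. Fap was at most 1.8 CPM and Lum at most 1.48 CPM in any culture. Epithelial markers summed to at most 13.7 CPM and immune markers to at most 8.04. Of the endothelial markers, Pecam1 was at most 0.187 CPM while Kdr stood at 290 ± 3.12 CPM (SD, n = 3) in WT_Wound and 142 ± 2.77 in SG_Wound. The neuronal list summed to 84.2 to 93.1 CPM in WT_MEF, 171 to 234 in SG_MEF and 44.6 to 47.9 in KI_MEF. It fell from 63.0 to 63.9 CPM in WT_MMTV down to 6.50 to 6.92 in SG_MMTV. In WT_Wound it was 49.1 to 53.3 CPM, against 32.4 to 33.6 in SG_Wound. Kdm5d, a Y-linked gene, had 744 to 923 counts in WT_MEF and 0 to 3 in KI_MEF, while Ddx3y, another Y-linked gene, had 1010 to 1518 in WT_MEF and 1284 to 1844 in KI_MEF. Ddx3y was lower in SG_Wound, at 164 to 183 counts against 1622 to 1923 in WT_Wound, where Kdm5d was at 955 to 1184 against 819 to 974. Both had 0 counts in every MMTV culture. Xist had 44019 to 59760 counts in WT_MMTV and at most 11 in any MEF or wound culture, so that the MMTV cultures also differed from the others in sex. The part of these differences in the results below was not tested.

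The 33 genes varied more between MEF cultures than between cultures of the other types. The median coefficient of variation over the genes was 9.46 to 11.4% in the 3 MEF groups and 1.29 to 2.27% in the 4 others. All genes but the lowest showed the same contrast, with a median of 7.60 to 10.2% in MEF and 2.41 to 3.01% in the others. Hk1, a hexokinase that commits glucose to the cell, varied most in KI_MEF, at 164, 205 and 332 CPM in its 3 cultures. A change called in wound fibroblasts or MMTV-CAF can therefore be smaller than one called in MEF. The smallest called change on the log2 scale was 0.06 in SG_MMTV, 0.12 in SG_Wound, 0.24 in SG_MEF and 0.27 in KI_MEF.

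In WT cultures 32 of the 33 genes differed between the 3 fibroblast types by edgeR's quasi-likelihood test with Benjamini-Hochberg adjusted p under 0.05, against 93.3% of all genes tested. Ldha, which makes lactate from pyruvate, was the exception (adjusted p = 0.19). It was at 1143 ± 258 CPM in MEF, 1259 ± 2.35 in wound fibroblasts and 1106 ± 12.4 in MMTV-CAF. The test shares its estimate of spread over all WT cultures, so the wide MEF spread also enters the comparison of the other types. Ldha did not overlap between wound fibroblasts, at 1256 to 1261 CPM, and MMTV-CAF, at 1093 to 1118. Their log2 difference of −0.26 ± 0.13 (SE) still did not pass that test (adjusted p = 0.0932). Cell type, strain, sex and line cannot be told apart in these levels.

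Levels per kilobase of the longest annotated transcript leave out Pkm, for which no length was found. Among the other genes the highest WT level was that of Mif, a small secreted cytokine, in MEF and MMTV-CAF. In wound fibroblasts it was that of Eno1, the enolase. Mif was at 1368, 691 and 698 CPM per kb in MEF, wound fibroblasts and MMTV-CAF. Gapdh stood at 1104, 780 and 558 CPM per kb in the same order, Eno1 at 1062, 931 and 662, and Ldha at 647, 713 and 626. At the other end, Aldoc, the aldolase of the brain, was at 0.21, 0.74 and 0.76 CPM per kb and Egln3, an oxygen-sensing hydroxylase, at 0.94, 1.58 and 0.14. The hexokinases and phosphofructokinases lay between, from 6.06 CPM per kb for Pfkp in wound fibroblasts to 108 for Hk1 in MEF, with Hk2 at 17.1, 6.39 and 10.4 and Pfkl at 47.6, 20.5 and 82.2. No length was found for Pkm.

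**Figure D1:**
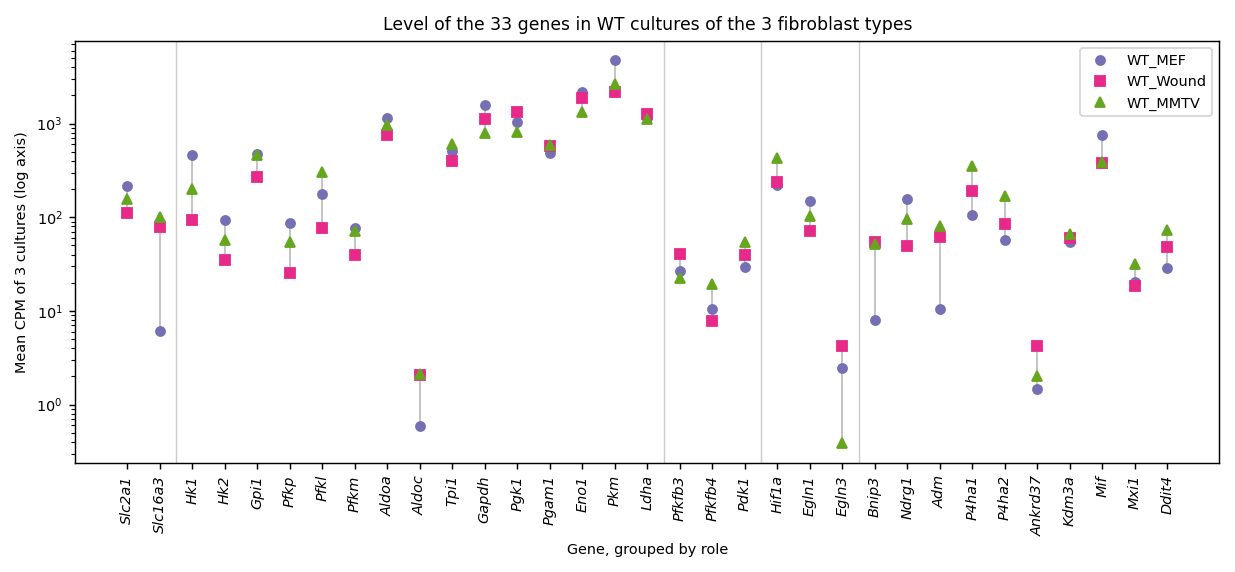
Level of each of the 33 genes in WT MEF (circles), WT wound fibroblasts (squares) and WT MMTV-CAF (triangles), as the mean CPM of 3 cultures on a log axis, with a line joining the lowest and highest type. Slc16a3, Adm and Bnip3 sit lowest in MEF, and Egln3 lowest in MMTV-CAF.

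MEF held the highest mean of 13 genes and the lowest of 12, wound fibroblasts the highest of 6 and the lowest of 15, and MMTV-CAF the highest of 14 and the lowest of 6. Wound fibroblasts were higher than MEF for 14 genes and lower for 16, where 40.9% and 39.4% (80.3% in both directions) of all genes tested were called. MMTV-CAF were higher than MEF for 16 and lower for 15 (40.6% and 38.6%, or 79.2%, of all genes), and higher than wound fibroblasts for 21 and lower for 6 (39.4% and 41.1%, or 80.4%). Most enzymes and the glucose transporter were highest in MEF. Hk1 was 462 ± 118 CPM in MEF, 201 ± 3.36 in MMTV-CAF and 93.1 ± 14.0 in wound fibroblasts, and each step of that order passed the test. Slc2a1, the glucose transporter GLUT1, followed the same order, at 217 ± 26.0, 157 ± 3.91 and 112 ± 2.21 CPM. Pkm, the pyruvate kinase, was 4779 ± 604 CPM in MEF, 2628 ± 49.8 in MMTV-CAF and 2167 ± 48.3 in wound fibroblasts.

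The lactate exporter and several hypoxia response genes ran the other way. Slc16a3, the lactate exporter MCT4, was 6.11 ± 0.54 CPM in MEF against 77.8 ± 2.63 in wound fibroblasts and 101 ± 3.31 in MMTV-CAF, a log2 difference of 3.70 ± 0.07 (SE) and 4.0 ± 0.07 from MEF. Bnip3, a mitophagy receptor, was 7.99 ± 2.5 CPM in MEF against 54.1 ± 1.76 and 51.9 ± 2.05, and the last 2 did not differ beyond their spread (adjusted p = 0.44). Adm, the vasodilator peptide adrenomedullin, was 10.6 ± 0.48 CPM in MEF against 61.5 ± 1.54 and 80.5 ± 2.86. The collagen prolyl hydroxylase subunits P4ha1 and P4ha2 rose from MEF through wound fibroblasts to MMTV-CAF, P4ha1 at 106 ± 20.2, 190.1 ± 3.78 and 354 ± 2.60 CPM. Hif1a, the oxygen-regulated subunit of HIF-1, was 218 ± 22.1 CPM in MEF and 235 ± 8.44 in wound fibroblasts (adjusted p = 0.1), and 425 ± 8.18 in MMTV-CAF. Egln3 was lowest in MMTV-CAF, with a log2 difference of −3.52 ± 0.14 from wound fibroblasts and −2.73 ± 0.14 from MEF.

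Of the 33 genes, 18 (54.5%) were called between KI_MEF and WT_MEF, 12 (36.4%) between SG_MEF and WT_MEF, 28 (84.8%) in wound fibroblasts and 31 (93.9%) in MMTV-CAF. In KI_MEF 10 genes were higher and 8 lower than in WT_MEF, where 59.9% of all genes tested were called (29.4% higher and 30.5% lower). In SG_MEF 7 were higher and 5 lower, where 43.1% of all genes were called (20.3% higher and 22.8% lower). In SG_Wound 19 were higher (57.6%) and 9 lower (27.3%), where 77.6% of all genes were called (38.3% higher and 39.3% lower). In SG_MMTV 25 were higher (75.8%) and 6 lower (18.2%), where 83.1% of all genes were called (41.2% higher and 41.9% lower). Called changes of at least 2-fold were fewer, at 6 (18.2%), 2 (6.06%), 3 (9.09%) and 7 genes (21.2%) in the same order, and these shares lay below those of all genes tested, 24.1%, 10.6%, 15.6% and 24.3%. Loss of Prrx1 cannot be told apart from differences between the lines.

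The mean log2 change of the 33 genes was 0.06 in KI_MEF (median 0.00), −0.02 in SG_MEF (median 0.03), −0.03 in SG_Wound (median 0.19) and 0.54 in SG_MMTV (median 0.34). Over all genes tested the mean was −0.15, −0.19, 0.02 and −0.12 in the same order, and the median was within 0.02 of 0 in each. In SG_Wound the mean and the median differ in sign, and Adm, the gene with the widest change there, fell by 5.31 on the log2 scale. With library totals alone the mean in SG_Wound was 0.085. In KI_MEF the mean ranged from 0.02 without KI_MEF replicate 3 to 0.11 without KI_MEF replicate 1, and in SG_MEF from −0.04 without SG_MEF replicate 1 to 0.01 without SG_MEF replicate 3. Relative to the WT mean of the same type, the mean over genes of log2 CPM in single cultures had an SD of 0.11 in KI_MEF, 0.06 in SG_MEF and 0.01 in SG_Wound and SG_MMTV. The SG_MEF count rests on single cultures, falling to 3 higher and 3 lower without SG_MEF replicate 2 and rising to 9 and 7 without WT_MEF replicate 3. With library totals alone, or with upper-quartile scaling, it was 5 higher and 6 lower.

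**Figure D2:**
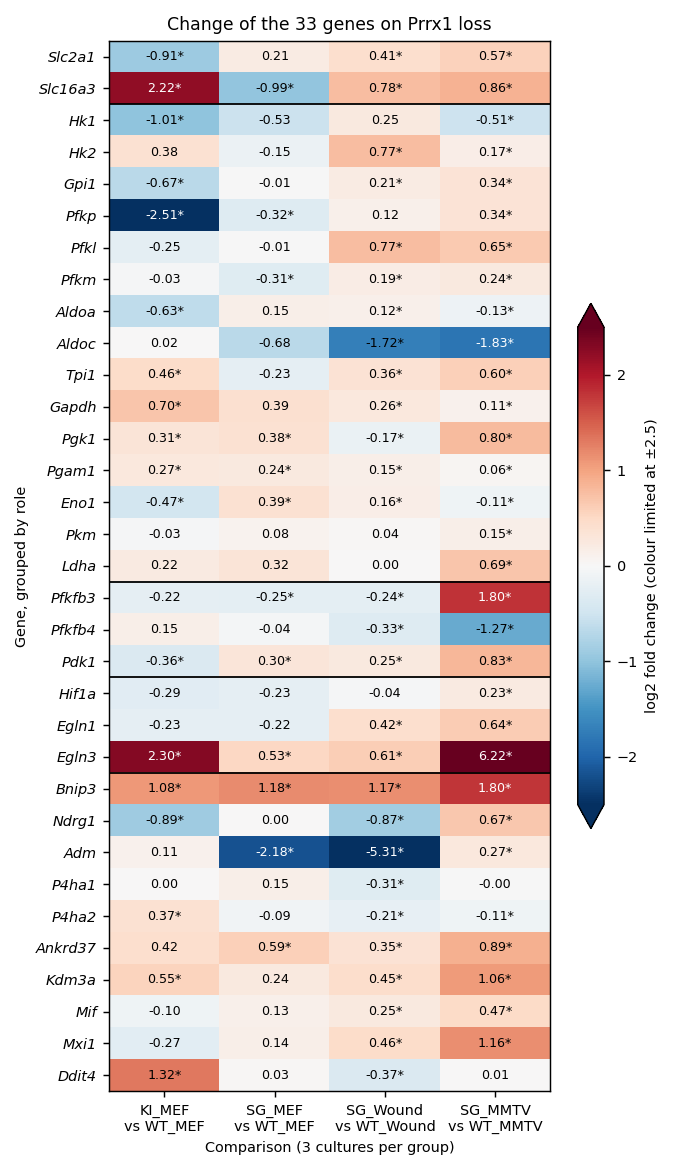
Fitted log2 fold change of each of the 33 genes (rows, grouped by role from top: transport, glycolysis, flux control, oxygen sensing, hypoxia response) in the 4 comparisons with WT, red for higher and blue for lower in the loss group, with an asterisk at adjusted p under 0.05. Bnip3, Egln3 and Pgam1 are called higher in all 4 columns, and the SG_MMTV column is red for most rows.

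Every one of the 33 genes was called in at least 1 of the 4 comparisons, as were 97.8% of the 12582 genes tested in all 4. The genes called higher in all 4 were 3 (9.09%, against 1.73% of all genes), namely Bnip3, Egln3 and Pgam1. None was lower in all 4 (3.62% of all genes), and 14 (42.4%, against 56.7%) were called in opposite directions in different comparisons. KI_MEF and SG_MEF were set against the same 3 WT cultures. Pdk1 and Ankrd37 were, beside those 3 genes, called higher in all 3 comparisons of cells with the guide, which makes 5 genes (15.2%, against 3.25% of all genes).

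Bnip3 was about doubled or more in each loss group. It was 6.43, 6.68 and 10.9 CPM in WT_MEF, 21.2, 16.6 and 13.7 in KI_MEF and 15.7, 18.7 and 20.7 in SG_MEF. In wound fibroblasts it was 53.6, 52.7 and 56.1 CPM in WT and 122, 122 and 122 with the guide. In MMTV-CAF it was 49.6, 52.4 and 53.7 CPM in WT and 185, 183 and 180.1 with the guide. No loss culture overlapped with the WT cultures of its type. The log2 changes were 1.08 ± 0.25 (SE; adjusted p = 0.00876), 1.18 ± 0.22 (adjusted p = 0.00543), 1.17 ± 0.03 (adjusted p = 2.1e-09) and 1.80 ± 0.03 (adjusted p = 1.13e-09), and each call held under every alternative run.

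Egln3 encodes a HIF prolyl hydroxylase that HIF itself induces. It was 2.16, 2.75 and 2.56 CPM in WT_MEF, 13.5, 12.1 and 11.8 in KI_MEF and 2.94, 3.87 and 4.05 in SG_MEF. In wound fibroblasts it was 4.43, 3.99 and 4.17 CPM in WT and 6.08, 7.08 and 6.15 with the guide. In MMTV-CAF it was 0.39, 0.36 and 0.41 CPM in WT, or 41 to 54 counts a culture, and 28.6, 29.8 and 29.5 with the guide. The loss cultures lay above WT without overlap in all 4 comparisons. The size ranged from 0.53 ± 0.17 (log2; adjusted p = 0.0442) in SG_MEF and 0.61 ± 0.09 in SG_Wound to 2.30 ± 0.14 in KI_MEF and 6.22 ± 0.05, or 74.7-fold, in SG_MMTV. The SG_MEF call was lost with library totals alone (adjusted p = 0.066), with upper-quartile scaling (adjusted p = 0.052) and without 5 of the 6 cultures in turn.

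Pgam1, the phosphoglycerate mutase, changed little in each comparison. It was 458, 469 and 511 CPM in WT_MEF, 571, 600.3 and 589 in KI_MEF and 567, 594 and 551 in SG_MEF. In wound fibroblasts it was 573 to 596 CPM in WT against 643 to 655, and in MMTV-CAF 579 to 596 against 603 to 626. These groups did not overlap, but the log2 changes were only 0.27 ± 0.07, 0.24 ± 0.07, 0.15 ± 0.02 and 0.06 ± 0.02. The calls in KI_MEF, SG_MEF and SG_MMTV were each lost under some alternatives, whereas that in SG_Wound was not.

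**Figure D3:**
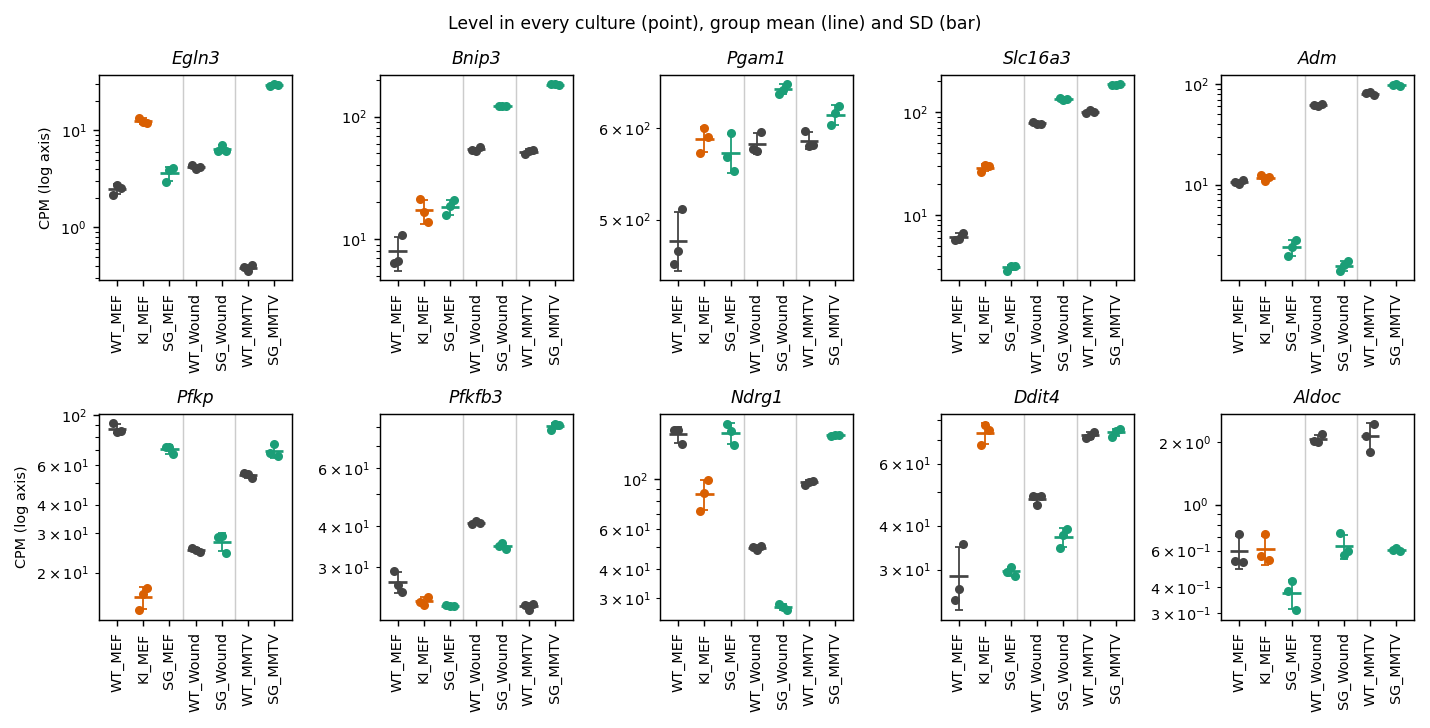
CPM of 10 of the genes in every culture (points, log axis) with the group mean (line) and SD (bar), for WT (grey), KI_MEF (orange) and cells with the guide (green), by fibroblast type. Egln3 and Bnip3 lie above WT in each type, and Adm falls in SG_MEF and SG_Wound but not in KI_MEF or SG_MMTV.

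Of the transporters, Slc16a3 moved in opposite directions in the 2 kinds of Prrx1 loss in MEF. It was 5.73, 5.86 and 6.73 CPM in WT_MEF, 26.2, 30.8 and 29.7 in KI_MEF and 2.87, 3.22 and 3.24 in SG_MEF. In wound fibroblasts it was 75.9 to 80.8 CPM in WT and 132 to 136 with the guide, and in MMTV-CAF 98.0 to 104 and 183 to 187. No groups overlapped. The log2 change was 2.22 ± 0.11 in KI_MEF and −0.99 ± 0.12 in SG_MEF, and 0.78 ± 0.03 and 0.86 ± 0.03 in SG_Wound and SG_MMTV. Slc2a1 was lower in KI_MEF, by 0.91 ± 0.13 on the log2 scale, did not pass in SG_MEF (0.21 ± 0.11), and was higher in SG_Wound (0.41 ± 0.03) and SG_MMTV (0.57 ± 0.02).

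Of the 15 enzymes from hexokinase to lactate dehydrogenase, 4 were higher and 5 lower in KI_MEF, 3 and 2 in SG_MEF, 9 and 2 in SG_Wound, and 11 and 4 in SG_MMTV. Over all genes tested the shares were 29.4% and 30.5%, 20.3% and 22.8%, 38.3% and 39.3%, and 41.2% and 41.9%. Pfkp, a phosphofructokinase isoform of the rate-controlling step, fell most in KI_MEF, from 91.9, 84.1 and 85.2 CPM in WT_MEF to 13.6, 16.0 and 17.0, while SG_MEF held 72.1, 71.9 and 66.9. Both loss groups lay below WT_MEF without overlap, by 2.51 ± 0.10 and 0.32 ± 0.07 on the log2 scale. In wound fibroblasts Pfkp was 24.6 to 25.6 CPM in WT and 24.5 to 29.1 with the guide, which overlapped (adjusted p = 0.091), and in MMTV-CAF it was 52.5 to 55.2 against 65.7 to 74.3 (0.34 ± 0.05). Pfkl, the liver-type isoform, was higher by 0.77 ± 0.03 in SG_Wound and 0.65 ± 0.02 in SG_MMTV.

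Pfkm, the muscle isoform, was lower in SG_MEF (−0.31 ± 0.09) and higher in SG_Wound (0.19 ± 0.03) and SG_MMTV (0.24 ± 0.02), and Gpi1, the isomerase before this step, was lower in KI_MEF (−0.67 ± 0.11) and higher in SG_Wound (0.21 ± 0.02) and SG_MMTV (0.34 ± 0.02).

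The hexokinases differed between types. Hk1 was lower by 1.01 ± 0.28 in KI_MEF, a call lost without KI_MEF replicate 2 (adjusted p = 0.0626) or WT_MEF replicate 1 (adjusted p = 0.0572), and by 0.51 ± 0.03 in SG_MMTV. Hk2, the inducible isoform, was higher by 0.77 ± 0.04 in SG_Wound, from 35.2 ± 1.7 to 60.4 ± 1.01 CPM, and by 0.17 ± 0.03 in SG_MMTV. Neither comparison in MEF called it.

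Aldoc was the enzyme that fell most with the guide in wound fibroblasts and MMTV-CAF, at a low level. It was 2.02, 2.0 and 2.19 CPM in WT_Wound and 0.73, 0.57 and 0.60 in SG_Wound, and 2.15, 1.79 and 2.45 in WT_MMTV and 0.60, 0.62 and 0.60 in SG_MMTV. The groups did not overlap, and the log2 changes were −1.72 ± 0.16 and −1.83 ± 0.16. In MEF it was 0.53 to 0.72 CPM in WT, 0.54 to 0.72 in KI_MEF and 0.31 to 0.43 in SG_MEF, and neither change passed the test. Aldoa, the main aldolase, changed by 0.15 or less on the log2 scale except in KI_MEF, where it was lower by 0.63 ± 0.11.

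In SG_MMTV Pgk1 was higher by 0.80 ± 0.02, Ldha by 0.69 ± 0.01 and Tpi1 by 0.60 ± 0.01. Ldha went from 1106 ± 12.4 to 1810 ± 20.3 CPM there, but from 1259 ± 2.35 to 1266 ± 18.5 in wound fibroblasts, which overlapped (adjusted p = 0.811). Pgk1 was also higher in KI_MEF (0.31 ± 0.09) and SG_MEF (0.38 ± 0.07) but lower by 0.17 ± 0.02 in SG_Wound. Tpi1, the triose isomerase, was higher in KI_MEF (0.46 ± 0.12) and SG_Wound (0.36 ± 0.02), and Pkm was called in SG_MMTV alone (0.15 ± 0.02). Gapdh was higher by 0.70 ± 0.19 in KI_MEF, 0.26 ± 0.01 in SG_Wound and 0.11 ± 0.02 in SG_MMTV. Eno1 was lower in KI_MEF (−0.47 ± 0.10) and SG_MMTV (−0.11 ± 0.02) and higher in SG_MEF (0.39 ± 0.09) and SG_Wound (0.16 ± 0.01). Its value is uncertain, since the near-identical copy Eno1b took 22.8 to 29.5% of the reads of the pair in MEF and 22.7 to 23.6% in MMTV-CAF, but 3.98 to 4.91% in wound fibroblasts. The negative sign in SG_MMTV also turned to 0.02 with library totals alone (adjusted p = 0.435).

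Summed over the 15 enzymes, SG_MMTV held 12213 ± 104 CPM against 10002 ± 82.8 in WT_MMTV, and SG_Wound 10809 ± 43.2 against 10033 ± 40.5 in WT_Wound, without overlap in either type. KI_MEF, at 12115 to 16736 CPM, overlapped with WT_MEF, at 13485 to 14623, and SG_MEF, at 14631 to 17507, lay above WT_MEF with its lowest culture next to the highest of WT.

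Of the 3 genes that set the flux, Pfkfb3 makes the activator of phosphofructokinase and was higher in MMTV-CAF alone. It was 23.0, 22.1 and 23.1 CPM in WT_MMTV and 78.3, 81.5 and 81.2 in SG_MMTV, a log2 change of 1.80 ± 0.03. In wound fibroblasts it was lower, from 40.4, 41.4 and 40.7 CPM to 34.8, 35.4 and 34.0 (−0.24 ± 0.03). In MEF it was 25.2 to 29.1 CPM in WT, 22.9 to 24.3 in KI_MEF and 22.8 to 22.9 in SG_MEF, with a call in SG_MEF only (−0.25 ± 0.08) that was lost when any of 5 of the 6 cultures was left out. Pfkfb4, its relative, moved the other way in SG_MMTV, from 19.3 ± 0.43 to 8.11 ± 0.32 CPM (−1.27 ± 0.04). Pdk1, the kinase that shuts off pyruvate dehydrogenase, was lower in KI_MEF (−0.36 ± 0.09) and higher in SG_MEF (0.30 ± 0.07), SG_Wound (0.25 ± 0.03) and SG_MMTV (0.83 ± 0.03).

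Of the oxygen-sensing genes beside Egln3, Egln1, the main hydroxylase of HIF-1α, was higher in SG_Wound (0.42 ± 0.02) and SG_MMTV (0.64 ± 0.03) and not called in MEF. Hif1a was higher in SG_MMTV by 0.23 ± 0.02 and was not called elsewhere, although with library totals alone it was called higher in SG_Wound (0.08, adjusted p = 0.0411) where the value under TMM was −0.04. HIF-1α is controlled mainly as a protein, which was not measured.

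Adm, whose change differed widely between fibroblast types, was 61.4, 60.0 and 63.1 CPM in WT_Wound and 1.38, 1.58 and 1.72 in SG_Wound, a 39.8-fold fall (log2 −5.31 ± 0.06). In MEF it was 10.6, 10.1 and 11.1 CPM in WT, 12.3, 10.8 and 11.8 in KI_MEF and 1.92, 2.36 and 2.80 in SG_MEF. In MMTV-CAF it was 80.8, 83.3 and 77.6 CPM in WT and 98.5, 100.5 and 96.3 with the guide. SG_MEF and SG_Wound thus lay below WT without overlap, KI_MEF overlapped with WT_MEF, and SG_MMTV lay above WT. The log2 change was −2.18 ± 0.15 in SG_MEF, 0.11 ± 0.10 in KI_MEF (adjusted p = 0.346) and 0.27 ± 0.03 in SG_MMTV.

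Ndrg1, a stress-responsive growth regulator, and Ddit4, an inhibitor of mTOR signalling, also differed between comparisons. Ndrg1 was 164, 163 and 142 CPM in WT_MEF, 72.5, 86.4 and 98.8 in KI_MEF and 173, 162 and 140.1 in SG_MEF. It fell in SG_Wound, from 48.6 to 50.9 CPM down to 26.5 to 28.3, and rose in SG_MMTV, from 94.2 to 98.1 up to 155 to 156. The changes were −0.89 ± 0.12, 0.00 ± 0.10, −0.87 ± 0.03 and 0.67 ± 0.02 on the log2 scale, and only SG_MEF overlapped with WT. Ddit4 was 24.6, 26.4 and 35.5 CPM in WT_MEF, 67.8, 77.4 and 74.6 in KI_MEF and 29.6, 30.6 and 28.8 in SG_MEF. KI_MEF lay above WT by 1.32 ± 0.14, SG_MEF overlapped, SG_Wound was lower (34.5 to 39.2 CPM against 45.8 to 48.5, −0.37 ± 0.05), and SG_MMTV overlapped with WT at 71.7 to 75.1 CPM against 70.9 to 74.0.

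Kdm3a, a histone demethylase, was higher in KI_MEF (0.55 ± 0.11), SG_Wound (0.45 ± 0.03) and SG_MMTV (1.06 ± 0.06). Mxi1, an antagonist of Myc, was higher in SG_Wound (0.46 ± 0.03) and SG_MMTV (1.16 ± 0.03). Ankrd37 was higher by 0.59 ± 0.18 in SG_MEF, 0.35 ± 0.07 in SG_Wound and 0.89 ± 0.10 in SG_MMTV, at 1.48 to 5.35 CPM on average, and the SG_MEF call was lost without any of 5 of the 6 cultures. Mif was higher by 0.25 ± 0.03 in SG_Wound and 0.47 ± 0.03 in SG_MMTV. The collagen hydroxylase subunits moved little. P4ha1 was lower in SG_Wound alone (−0.31 ± 0.02), and P4ha2 was higher in KI_MEF (0.37 ± 0.08) and lower in SG_Wound (−0.21 ± 0.03) and SG_MMTV (−0.11 ± 0.02), the last of which turned to 0.03 with library totals alone.

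The effect of the guide differed between the 3 fibroblast types for 30 of the 33 genes by the interaction of type and genotype over 18 cultures, against 80.1% of all genes tested. Gapdh (adjusted p = 0.277), Pkm (adjusted p = 0.416) and Mif (adjusted p = 0.16) did not pass. That fit shares its estimate of spread with MEF, so these genes are not shown to change alike in wound fibroblasts and MMTV-CAF. The change in MMTV-CAF exceeded that in MEF for 19 genes and fell short for 5, where 30.2% and 30.5% (60.7% in both directions) of all genes did so. Against wound fibroblasts, the change in MMTV-CAF was greater for 17 and less for 5, where 34.8% and 31.7% (66.5%) of all genes did so. Between wound fibroblasts and MEF the split was even, 8 greater and 9 less (28.8% and 31.5%, or 60.3%, of all genes), and this split became 13 and 4 with library totals alone and 10 and 7 with upper-quartile scaling. The widest differences were those of Egln3 between MMTV-CAF and MEF, 5.71 ± 0.17 (log2), and of Adm between MMTV-CAF and wound fibroblasts, 5.63 ± 0.12.

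The mutant and the guide also differed within MEF. SG_MEF was higher than KI_MEF for 7 of the 33 genes and lower for 10, where 27.8% and 28.4%, or 56.2% in both directions, of all genes tested were called. The 10 became 6 without KI_MEF replicate 2 or SG_MEF replicate 2 and 6 with the replicate block. Slc16a3 was lower in SG_MEF by 3.21 ± 0.10, Adm by 2.29 ± 0.15, Egln3 by 1.78 ± 0.14 and Ddit4 by 1.30 ± 0.07, while Pfkp was higher by 2.18 ± 0.10 and Slc2a1 by 1.11 ± 0.12. Bnip3 did not differ beyond the spread, at 17.1 ± 3.78 CPM in KI_MEF and 18.4 ± 2.54 in SG_MEF (adjusted p = 0.66). The kind of loss cannot be told apart from the line, since Kdm5d was near 0 in KI_MEF alone among MEF, although Ddx3y was not.

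Genes next to this pathway were read from lists fixed for it, and their counts stand beside 38.3% higher and 39.3% lower over all genes tested in SG_Wound, 41.2% and 41.9% in SG_MMTV, 29.4% and 30.5% in KI_MEF and 20.3% and 22.8% in SG_MEF. Of 16 genes of the TCA cycle tested, 1 was higher and 14 lower in SG_Wound (median −0.35), 9 and 6 in SG_MMTV (median 0.21), 3 and 7 in KI_MEF and 1 and 3 in SG_MEF. The 6 lower in SG_MMTV (37.5%) were near the share of all genes. Fh1, the fumarase, was lower by 0.78 ± 0.03 and Idh3g, an isocitrate dehydrogenase subunit, by 0.56 ± 0.02 in SG_Wound. In SG_MMTV Sdhd and Suclg1 were higher, by 0.89 ± 0.03 and 0.87 ± 0.02, and Ogdh was lower by 1.06 ± 0.02.

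Of 13 genes listed for pyruvate entry into the mitochondrion, 1 was higher and 11 lower in SG_Wound, and 9 and 2 in SG_MMTV. The counts were 2 and 6 in KI_MEF and 4 and 4 in SG_MEF. The list includes Pdk2, Pdk3 and Pdk4, kinases that inhibit pyruvate dehydrogenase, so its counts give no direction of pyruvate entry. The difference between MMTV-CAF and wound fibroblasts in the effect of the guide passed the test for all 13, with MMTV-CAF greater for 12, and for 13 of the 16 TCA genes, with MMTV-CAF greater for 10. Pcx, pyruvate carboxylase, was lower by 1.68 ± 0.04 in SG_Wound and 1.18 ± 0.11 in SG_MEF. Pdk4, one of these inhibitory kinases, moved opposite to most listed genes in both types. It was higher by 1.81 ± 0.09 in SG_Wound and lower by 4.03 ± 0.06 in SG_MMTV, from 12.9 to 0.80 CPM. It was also lower by 2.64 ± 0.15 in SG_MEF and higher by 0.73 ± 0.12 in KI_MEF.

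Of the 7 genes of the pentose phosphate pathway, 6 were lower and 1 higher in SG_Wound, among them Tkt, the transketolase, by 0.41 ± 0.02. In SG_MMTV 4 were lower and 3 higher, with G6pdx, which opens the pathway, lower by 0.54 ± 0.02. In KI_MEF 4 were higher and 2 lower, and in SG_MEF 2 and 1.

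**Figure D4:**
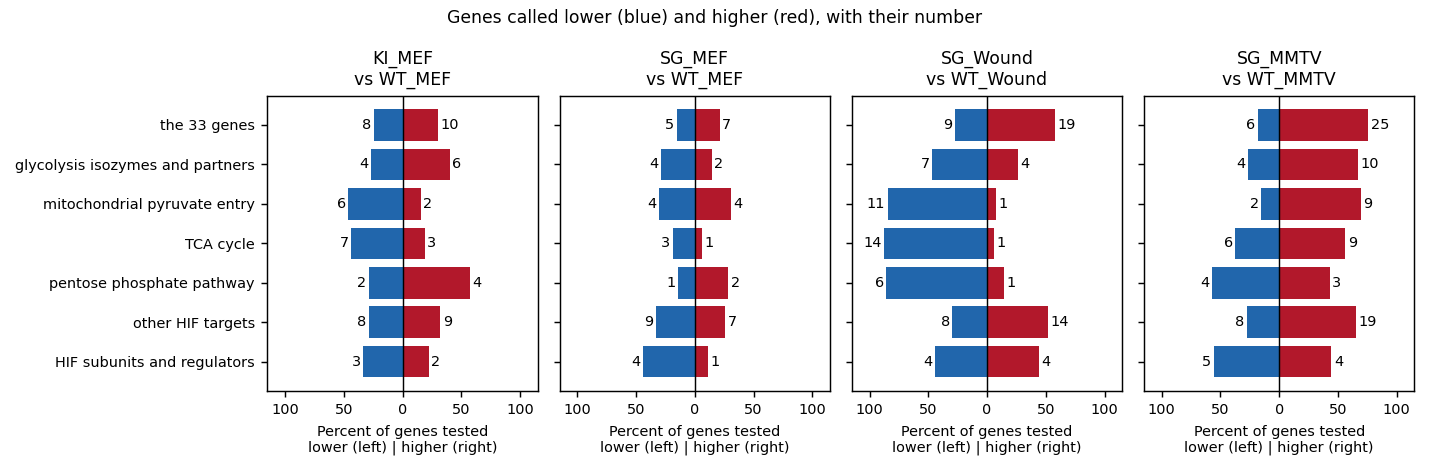
Share of the tested genes of each list called lower (blue, left) and higher (red, right) in the 4 comparisons with WT, with the number of genes at each bar. In SG_Wound 14 of 16 TCA genes and 11 of 13 genes of the pyruvate-entry list, inhibitors included, are lower while 19 of the 33 glycolysis and hypoxia genes are higher.

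Of the other isozymes and partners of glycolysis, 10 of 15 tested were higher and 4 lower in SG_MMTV, 4 and 7 of 15 in SG_Wound, 6 and 4 of 15 in KI_MEF and 2 and 4 of 14 in SG_MEF. Slc16a1, the lactate carrier MCT1, was higher by 2.17 ± 0.02 in SG_MMTV, from 44.4 to 202 CPM, and Ldhb, the heart-type lactate dehydrogenase subunit, by 1.67 ± 0.07. Ldhb was lower by 1.31 ± 0.10 in SG_MEF. In KI_MEF Eno3, the muscle enolase, was lower by 2.60 ± 0.08 and Slc2a3, the glucose transporter GLUT3, higher by 2.86 ± 0.15, from 3.30 to 24.3 CPM.

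Of further HIF targets, 19 of 29 tested were higher and 8 lower in SG_MMTV, 14 and 8 of 27 in SG_Wound, 9 and 8 of 28 in KI_MEF and 7 and 9 of 27 in SG_MEF. The shares of all genes were 41.2% and 41.9%, 38.3% and 39.3%, 29.4% and 30.5%, and 20.3% and 22.8%, so that the KI_MEF counts (32.1% and 28.6%) were near them. Ak4, a mitochondrial adenylate kinase, was higher by 1.39 ± 0.03 in SG_Wound and 1.56 ± 0.16 in SG_MEF, and Stc2, stanniocalcin, by 2.55 ± 0.06 in SG_MMTV. Others fell in the same comparisons. In SG_MMTV Ndufa4l2 went from 1.24 to 0.016 CPM and Tmem45a from 168 to 67.7, and in SG_MEF Ppp1r3c went from 3.45 to 0.135. The mean log2 change of these targets in SG_MMTV was 0.06 and the median 0.27. Lox, which crosslinks collagen, was lower by 2.84 ± 0.02 in SG_Wound, from 803 to 112 CPM. Car9, a common marker of hypoxia, was at most 0.36 CPM on average in any group.

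Of 9 HIF subunits and regulators tested, 4 were higher and 5 lower in SG_MMTV, 4 and 4 in SG_Wound, 2 and 3 in KI_MEF and 1 and 4 in SG_MEF. Epas1, the HIF-2α subunit, was lower by 3.94 ± 0.34 in SG_MEF and 2.49 ± 0.31 in KI_MEF, from 3.91 CPM in WT_MEF to 0.26 and 0.71. Vhl, which targets hydroxylated HIF for degradation, was lower by 0.73 ± 0.05 in SG_Wound. Arnt2, a partner of the HIF alpha subunits, was higher by 2.16 ± 0.05 in SG_MMTV and 1.65 ± 0.14 in KI_MEF and lower by 1.47 ± 0.18 in SG_MEF.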

How the data were processed

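The authors deposited raw counts, whole numbers of reads per gene with no scaling, in 1 table for MEF, 1 for wound fibroblasts and 1 for MMTV-CAF. Per the labels and the study's methods, Trimmomatic, STAR (genome mm10) and HTSeq were used in turn to trim, align and count reads from a kit without strand. The methods end with a correction by ComBat-seq, named after the human data, and do not say whether it covered the mouse counts. The kit does not mark strand, so reads of overlapping antisense genes are counted together. All 21 columns were used, and the wound columns, which do not name the type, were assigned by elimination.

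The quasi-likelihood test of edgeR 4.0.16 (R 4.3.3; glmQLFit, glmQLFTest) was fitted over the 6 cultures of a comparison after filterByExpr and TMM scaling, and calls were made at a Benjamini-Hochberg adjusted p under 0.05 over all genes tested. Standard errors are the absolute log2 fold change divided by the square root of F. Differences between types were tested as an interaction over 18 cultures, and WT levels over 9. Both fits share an estimate of spread per gene over all types. The wider MEF spread therefore also enters the standard errors between wound fibroblasts and MMTV-CAF. CPM were scaled over genes in all 3 tables. Replicate counts differed by more than sampling noise within each group. Depths were high enough that the spread between cultures, not counting error, set the precision of all but the lowest genes.

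Alternatives were RLE, upper-quartile and library-total scaling, DESeq2 1.42.0, other filters, counts divided by 2, all 9 MEF cultures in one model, a 2-fold minimum, a replicate block and leaving out each culture. Values of every culture are given for genes called alike in all 4 comparisons with WT and for the 4 genes with the largest change in each, and from the other lists up to 3 called genes with the largest change were eligible. Prrx1, the markers, Eno1b, Kdm5d, Ddx3y and Xist are named beside them; Eno1b, Kdm5d, Ddx3y and Xist were chosen after values were seen. The 33 genes and the lists were chosen with earlier results of these data known. The steps were tested on simulated data. ChIP-seq, single-cell and human data were not used here. Plots were drawn in Python with pandas 2.3.3 and matplotlib 3.10.9.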

Additional observations from a re-analysis of the deposited data

Results flagged for a closer look

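The effect of the guide against Prrx1 differed between fibroblast types for 30 of the 33 genes by edgeR's interaction test at adjusted p under 0.05, where 80.1% of all genes tested did so. For each gene the widest of the 3 differences between types in its log2 change is given.

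The change in MMTV-CAF exceeded that in MEF by 5.71 for Egln3, 1.87 for Slc16a3, 1.04 for Mxi1, 0.88 for Egln1, 0.85 for Tpi1, 0.84 for Kdm3a, 0.68 for Pfkp, 0.56 for Pfkm, 0.48 for Hif1a, 0.38 for Slc2a1 and 0.37 for Gpi1. The same difference was −1.20 for Pfkfb4, −1.13 for Aldoc, −0.48 for Eno1, −0.27 for Aldoa and −0.17 for Pgam1. The change in MMTV-CAF exceeded that in wound fibroblasts by 5.63 for Adm, 2.09 for Pfkfb3, 1.59 for Ndrg1, 1.01 for Pgk1, 0.74 for Ldha, 0.68 for Bnip3, 0.64 for Pdk1, 0.59 for Ankrd37, 0.43 for Ddit4 and 0.16 for P4ha2. The change in wound fibroblasts exceeded that in MEF by 0.89 for Hk2, 0.75 for Hk1 and 0.74 for Pfkl, and that difference was −0.50 for P4ha1.

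Bnip3, although higher with the guide in each type, thus rose more in MMTV-CAF than in wound fibroblasts (0.68 ± 0.19, adjusted p = 0.00466). This standard error rests on a spread shared with MEF. In the separate fits the standard error was 0.03 in SG_Wound and 0.03 in SG_MMTV. The types also differ in strain, sex and line, which cannot be told apart from type here.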

How the results depend on the processing

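Of the gene calls in the 4 comparisons with WT, 472 of 495 results under an alternative kept direction and side of the threshold in KI_MEF, 452 of 495 in SG_MEF, 451 of 462 in SG_Wound and 451 of 462 in SG_MMTV. Library totals alone raised the median of all genes by 0.11 in SG_Wound and 0.13 in SG_MMTV, and there Hif1a in SG_Wound reversed to 0.0753 (adjusted p = 0.0411), and in SG_MMTV Eno1 to 0.0207 (adjusted p = 0.435), P4ha1 to 0.13 (adjusted p = 6.27e-05) and P4ha2 to 0.0273 (adjusted p = 0.174). The same setting gave a mean change of 0.085 in SG_Wound and 0.67 in SG_MMTV, 3 genes lower in SG_MMTV, and 13 higher and 4 lower for wound fibroblasts minus MEF. Upper-quartile scaling gave a mean of −0.0536 in SG_Wound. The median in place of the mean was 0.19 in SG_Wound, 0.34 in SG_MMTV and 0.06 for SG_MEF against KI_MEF. Requiring a 2-fold change left 4 higher and 2 lower in KI_MEF, 1 and 1 in SG_MEF, 1 and 2 in SG_Wound, 5 and 2 in SG_MMTV, 2 and 4 for SG_MEF against KI_MEF, 1 and 2, 5 and 2, and 5 and 0 for the differences of effect between wound fibroblasts and MEF, MMTV-CAF and MEF, and MMTV-CAF and wound fibroblasts, and 5 and 7, 7 and 4, and 4 and 2 for the same pairs in WT. The cause of these shifts was not tested.

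No pairing of same-numbered cultures is stated. Their deviations from the group means correlated between −0.18 and −0.04 in WT_MEF and KI_MEF. The range was −0.22 to 0.03 in KI_MEF and SG_MEF, and −0.02 to 0.13 in WT_MEF and SG_MEF. In no pair of groups was every correlation over 0.1 or every culture closest to its own number. Over all genes, a replicate block raised the calls in SG_MEF against WT_MEF from 5764 to 6629. It lowered those in KI_MEF against WT_MEF from 8155 to 6457. Whether MEF cultures share a structure by number was not tested further. With the replicate block, 6 genes in place of 10 were lower in SG_MEF than in KI_MEF, and Hk1 (adjusted p = 0.0526), Pgk1 (adjusted p = 0.082) and Pgam1 (adjusted p = 0.0738) lost their calls in KI_MEF and Pgam1 (adjusted p = 0.0647) in SG_MMTV.

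Leaving out 1 culture gave 7 to 10 genes higher and 7 to 10 lower in KI_MEF, 3 to 9 and 3 to 7 in SG_MEF, 19 to 20 and 9 in SG_Wound, 24 to 25 and 6 in SG_MMTV, and 7 to 8 and 6 to 10 for SG_MEF against KI_MEF, where the lowest was without KI_MEF replicate 2 or SG_MEF replicate 2. The mean change ranged from 0.02 to 0.11, −0.04 to 0.01, −0.04 to −0.02, 0.52 to 0.54 and −0.15 to −0.04 in the same order. The interaction called 28 to 31 genes, with 7 to 11 higher and 8 to 11 lower for wound fibroblasts minus MEF, 18 to 21 and 4 to 8 for MMTV-CAF minus MEF (8 without WT_MEF replicate 3), and 16 to 21 and 4 to 5 for MMTV-CAF minus wound fibroblasts. Between WT types 32 differed throughout, with 13 to 14 higher and 15 to 16 lower, 15 to 16 and 14 to 16, and 20 to 21 and 6 to 7 for the same pairs. Depth limits the lowest genes, Egln3 in WT_MMTV with 41 to 54 counts and Aldoc in SG_MEF with 24 to 29.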
